A study of Arabidopsis thaliana with 60 samples.

Results

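The genes described here are 9 genes of the endodermis and its Casparian strip, out of 32833 loci counted in each of 60 libraries. They were chosen by name, as the rows of CASP1, CASP2, CASP4, CASP5, MYB36, ESB1, PER64, SGN3 and SCR, and all 9 were found and passed the filter on low counts in every fit. The endodermis is the cell layer around the vascular cylinder of the root. Its cells seal the space between them with the Casparian strip, a ring of lignin. The strip is laid down where CASP proteins form a scaffold in the plasma membrane. During lateral root formation the endodermal cells over a founder cell respond to auxin, shrink and let the new organ pass, so genes of this barrier are of interest in a lateral root induction experiment.

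Roots came from 2 Arabidopsis lines, pGATA23::shy2-2-GR (shy2-2 here) and pGATA23::slr-1-GR (slr-1 here). In both, a stabilised Aux/IAA repressor, of IAA3 in shy2-2 and of IAA14 in slr-1, is fused to the hormone-binding domain of the glucocorticoid receptor, which keeps it in the cytoplasm until dexamethasone (DEX) is given. The promoter of GATA23 drives the fusion in pericycle cells that found lateral roots, not in the endodermis, and all groups carry a fusion gene. Seedlings were moved at 4 d to 10 µM of the auxin transport inhibitor NPA for 22 h. They then had 2 h of NPA with 10 µM DEX or with DMSO, its solvent. Last they were moved to 10 µM of the auxin IAA, again with DEX or DMSO. DEX and DMSO were sampled in each line after 0, 1, 2, 4 and 6 h on IAA. This gave 20 groups of 3 libraries, each library from about 200 pooled root segments. The 0 h groups had NPA but no IAA. No roots analysed here were followed over the same hours without IAA, so a change over time includes any effect of elapsed time. No plants without a fusion were given DEX, so a DEX effect includes any effect of DEX itself. The labels name 12 samples as 1 h, while the harvest text lists only the other times. Nothing in the labels says that replicates were separate cultures, so the p-values rest on a spread among libraries that may be only technical.

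CASP1, CASP2, CASP4 and CASP5 encode membrane proteins of the strip domain. ESB1 is a dirigent-like protein and PER64 a peroxidase, both needed for lignin of the strip. SGN3, also named GSO1, is a receptor kinase that surveys whether the strip is closed. MYB36 is the transcription factor that switches on CASP genes and other strip genes, and SCR is a GRAS factor that specifies the endodermis. In TAIR10.1, the reference used for positions (the labels name TAIR10), CASP1 (AT2G36100) lies on chromosome 2 at 15159591 to 15160799 (minus strand), CASP2 (AT3G11550) on chromosome 3 at 3638178 to 3639348 (plus), CASP4 (AT5G06200) on chromosome 5 at 1877134 to 1878324 (plus) and CASP5 (AT5G15290) on chromosome 5 at 4967011 to 4968092 (plus). ESB1 (AT2G28670) lies on chromosome 2 at 12300265 to 12302358 (minus), PER64 (AT5G42180) on chromosome 5 at 16852628 to 16854224 (plus), SGN3 (AT4G20140) on chromosome 4 at 10883921 to 10888270 (plus), MYB36 (AT5G57620) on chromosome 5 at 23334767 to 23336632 (plus) and SCR (AT3G54220) on chromosome 3 at 20069987 to 20072878 (plus). Each of these CASP genes has 3 exons.

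CASP4 and CASP5 were lower at 6 h than at 0 h in all 4 arms, in slr-1 between different sequencing runs. CASP1 moved least of these CASP genes in shy2-2, and the later results set CASP4 and CASP5 beside it. The 250 bases before the start of these 3 genes are printed for that reason, 5′ to 3′ on the strand of the gene, read from the RefSeq TAIR10.1 genome. They run over chr2:15160800-15161049 for CASP1, chr5:1876884-1877133 for CASP4 and chr5:4966761-4967010 for CASP5. Capitals mark a match to one of the 4 motifs searched on both strands.
CASP1: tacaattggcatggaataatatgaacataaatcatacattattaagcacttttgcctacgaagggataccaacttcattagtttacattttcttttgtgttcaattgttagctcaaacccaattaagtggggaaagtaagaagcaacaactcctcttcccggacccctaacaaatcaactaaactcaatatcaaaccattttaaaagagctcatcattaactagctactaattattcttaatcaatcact
CASP4: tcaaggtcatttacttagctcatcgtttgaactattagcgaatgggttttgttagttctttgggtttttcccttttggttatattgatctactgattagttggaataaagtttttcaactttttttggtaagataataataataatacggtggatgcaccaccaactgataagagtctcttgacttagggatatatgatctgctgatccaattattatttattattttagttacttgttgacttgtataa
CASP5: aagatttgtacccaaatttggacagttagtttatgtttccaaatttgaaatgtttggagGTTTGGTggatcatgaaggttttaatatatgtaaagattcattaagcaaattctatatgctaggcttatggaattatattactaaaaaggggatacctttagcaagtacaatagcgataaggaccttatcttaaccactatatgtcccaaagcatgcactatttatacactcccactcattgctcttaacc

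The motifs were TGTCTC and TGTCGG, bound by auxin response factors, and ACCNACC and ACCNAAC, of the kind bound by MYB factors. No window of the 9 genes held more than 1 match. TGTCTC occurred in 10.95% of 27443 promoters of the same length and in 2 of the 9 genes, SGN3 and MYB36. TGTCGG occurred in 4.16% of all promoters and ACCNACC in 6.10%, and in 0 of the 9 genes. ACCNAAC occurred in 14.5% of all promoters and in 3 of the 9 genes, CASP5, ESB1 and SCR. Of the 3 CASP sequences printed, CASP5 holds a match, 185 to 191 bases before the start, and CASP1 and CASP4 hold none. A match describes these letters and is not evidence of binding.

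Levels are CPM, read counts relative to the size of the library, scaled with TMM factors, a correction for the composition of each library. Errors are SD over the 3 libraries of a group (n = 3) unless a standard error (SE) is stated. The libraries held 12146529 to 94077078 counts, with a median of 40286724, and the 9 genes had from 139 to 14484 counts per library. In 7 libraries the mean log2(CPM + 1) of 9 photosynthesis genes was above 6, with a highest value of 7.57, against 4.93 or less in the others. In shy2-2 they were replicate 2 of DEX 0 h, replicate 3 of DEX 4 h and replicate 2 of DMSO 2 h. In slr-1 they were 2 libraries of DEX 0 h (replicates 1 and 2) and 2 of DMSO 2 h (replicates 1 and 3). File names place the libraries in 5 sequencing runs. In shy2-2, the 0, 2, 4 and 6 h libraries of an arm shared a run, and DEX and DMSO were in different runs. The 1 h libraries of both arms shared another run, so 1 h against 0 h compares 2 runs there. In slr-1, DMSO 0 h came from another run than DMSO 1 to 6 h, and DEX 0 and 1 h from another run than DEX 2 to 6 h. At each time the DEX and DMSO libraries of slr-1 were in different runs.

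All 9 genes, which are markers of the endodermis here, were present in every library, from 3.45 CPM for CASP5 to 199 CPM for ESB1 as the lowest and highest single values. Divided by exon length, the order in DMSO at 0 h in shy2-2 was CASP1 with 111 ± 9.7 CPM per kb, ESB1 with 82.6 ± 6.7, PER64 with 58.0 ± 5.4, CASP5 with 37.1 ± 3.2 and CASP2 with 35.0 ± 2.3. Below them stood MYB36 with 22.0 ± 2.5, SCR with 18.4 ± 1.2, CASP4 with 18.2 ± 2.1 and SGN3 with 11.9 ± 2.6. The libraries of CASP1, ESB1 and PER64 did not overlap with those of their neighbours in this order, nor did those of MYB36, while those of CASP5 overlapped with CASP2 and SCR with CASP4. In slr-1 the same 3 genes led, CASP1 with 144 ± 23, ESB1 with 94.7 ± 18.5 and PER64 with 75.0 ± 4.2 CPM per kb. ESB1 is the gene whose counts depend most on strand: AT2G28671 on the plus strand covers 84.6% of it, and counted without strand ESB1 had 0 to 36 counts in a library, against 2303 to 14484 with strand. SGN3 shares 337 bases, 7.75% of its length, with AT4G20150 on the minus strand. That gene had 3319 to 20892 counts in a library, against 629 to 7361 for SGN3. The part of this overlap in the SGN3 values was not tested.

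**Figure D1:**
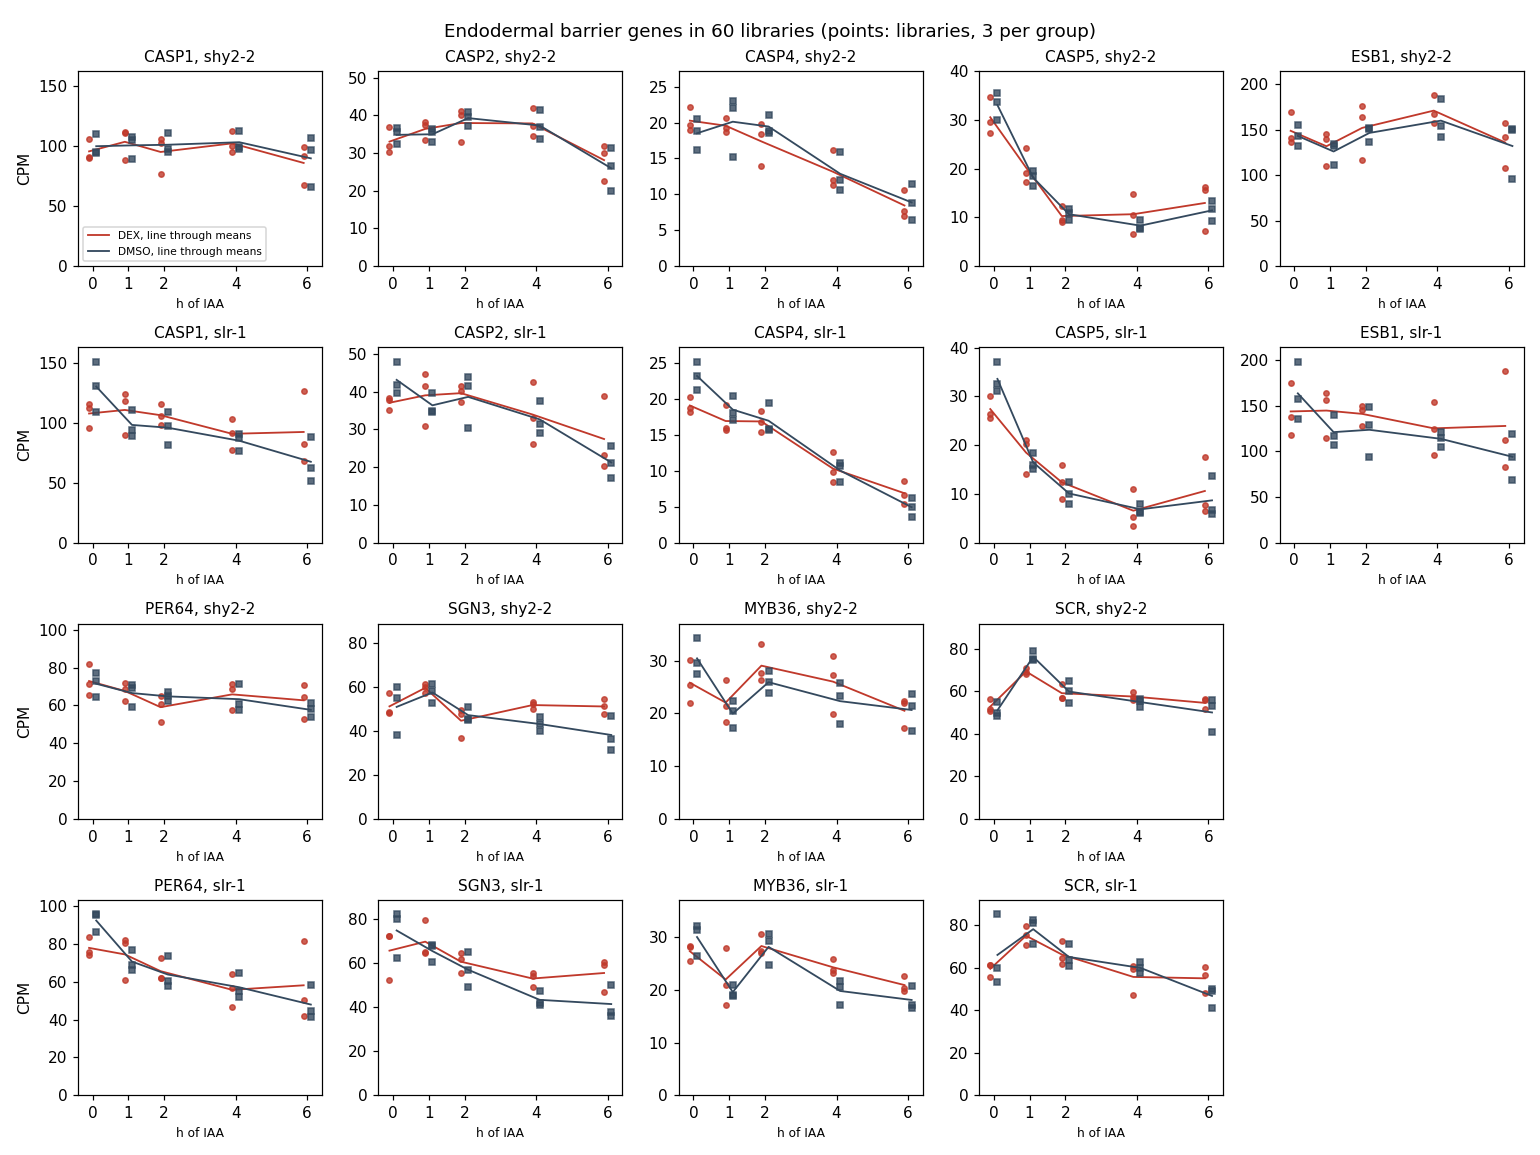
Level of each gene in CPM (vertical axis, from 0) against hours on IAA, in shy2-2 and slr-1. Red circles are DEX libraries, dark squares DMSO libraries and lines join the group means (n = 3). CASP5 drops within 2 h in all 4 arms, CASP4 drops later, and the DEX and DMSO lines lie close together for most genes.

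CASP5 had the most negative change of the 9 genes at 1, 2 and 4 h in every arm. In shy2-2 roots in DMSO its libraries stood at 29.9, 35.6 and 33.8 CPM at 0 h, 18.6, 19.5 and 16.4 CPM at 1 h, and 10.8, 11.7 and 9.49 CPM at 2 h. They stood at 7.75, 7.65 and 9.56 CPM at 4 h and 13.3, 9.32 and 11.8 CPM at 6 h. No library after 0 h reached the lowest library of 0 h. The groups were likewise apart in this direction for 19% of all genes at 1 h, 17.6% at 2 h, 23.5% at 4 h and 22.8% at 6 h. On the log2 scale CASP5 fell by 0.86 ± 0.25 (SE) at 1 h, 1.62 ± 0.25 at 2 h, 1.96 ± 0.25 at 4 h and 1.50 ± 0.25 at 6 h, with adjusted p values of 0.00958, 2.52e-05, 1.37e-06 and 3.7e-05 in edgeR's quasi-likelihood test.

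In the other 3 arms the mean of CASP5 was also lowest at 2 or 4 h. CASP5 averaged 30.6 ± 3.8, 20.3 ± 3.6, 10.3 ± 1.8, 10.7 ± 4.1 and 12.98 ± 5.1 CPM at 0, 1, 2, 4 and 6 h in shy2-2 in DEX, and fell by 1.57 ± 0.25 at 2 h. In slr-1 in DEX it averaged 27.4 ± 2.4, 18.5 ± 3.8, 12.4 ± 3.5, 6.54 ± 4.0 and 10.6 ± 6.0 CPM and fell by 2.1 ± 0.38 at 4 h. The means of slr-1 in DMSO were 33.6 ± 3.1, 16.5 ± 1.8, 10.08 ± 2.2, 6.82 ± 0.99 and 8.66 ± 4.3 CPM, and the fall at 4 h was 2.33 ± 0.38. In slr-1 the changes against 0 h compare libraries of different runs, apart from 1 h in DEX. Within a run, the change between 2 and 6 h in slr-1 in DEX was -0.23 (adjusted p = 0.72 in edgeR). In slr-1 in DMSO, CASP5 at 6 h was past the test against 1 h and not against 2 h. At 1 h CASP5 passed the test in DMSO but not in DEX in either line. Its change in DEX was -0.60 ± 0.24 in shy2-2 (adjusted p = 0.076) and -0.57 ± 0.36 in slr-1 (adjusted p = 0.31). The difference between DEX and DMSO at 1 h was 0.15 (95% interval -0.36 to 0.66) in shy2-2 and 0.16 (-0.59 to 0.91) in slr-1. The slr-1 DMSO call at 1 h rests on every library: leaving out any 1 of the 6 gave adjusted p values of 0.052 to 0.10. The slr-1 DEX call at 2 h (a fall of 1.15 ± 0.37) was lost without 0 h replicate 3, 2 h replicate 1 or 2 h replicate 2 (adjusted p = 0.063, 0.11 and 0.073) and without the libraries high in photosynthesis RNA (adjusted p = 0.13).

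CASP4 stayed near its starting level for 2 h in shy2-2 and was lower at 4 and 6 h. Its libraries in shy2-2 in DMSO stood at 16.2, 20.5 and 18.9 CPM at 0 h, 18.8, 18.5 and 21.01 CPM at 2 h, 10.7, 12.03 and 15.9 CPM at 4 h and 11.4, 6.46 and 8.74 CPM at 6 h. In slr-1 in DMSO they stood at 25.2, 21.2 and 23.2 CPM at 0 h, 19.4, 15.6 and 15.8 CPM at 2 h, 8.43, 10.6 and 11.04 CPM at 4 h and 4.98, 3.63 and 6.17 CPM at 6 h. In all 4 arms every 6 h library was below every 0 h library, as for 19.1% of all genes in shy2-2 in DEX, 22.8% in shy2-2 in DMSO, and for 21.7% in DEX and 25.9% in DMSO of the slr-1 line.

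At 6 h CASP4 fell by 1.26 ± 0.21 in shy2-2 in DEX and by 1.03 ± 0.20 in DMSO (adjusted p = 4.47e-05 and 0.00023). It fell by 1.48 ± 0.18 in slr-1 in DEX and 2.24 ± 0.18 in DMSO (adjusted p = 6.06e-07 and 4.58e-10). The slr-1 arms compare libraries of different runs here. Within a run, the fall of CASP4 was 1.30 ± 0.18 between 6 and 2 h in DEX and 1.93 ± 0.18 between 6 and 1 h in DMSO. At 4 h the falls of 0.63 ± 0.20 in shy2-2 in DEX and 0.50 ± 0.20 in DMSO (adjusted p = 0.0239 and 0.0493) were past the threshold, and single libraries ended both calls. Without replicate 1 of DEX 0 h or replicate 2 or 3 of DEX 4 h the adjusted p was 0.074 to 0.083. Without replicate 2 or 3 of DMSO 0 h or replicate 1 or 2 of DMSO 4 h it was 0.065 to 0.15.

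CASP2 had smaller changes at 6 h than CASP4 in every arm, and at 4 h it did not pass the test in any arm. In shy2-2 it averaged 28.1 ± 5.0 CPM at 6 h in DEX and 33.03 ± 3.4 CPM at 0 h, and 26.0 ± 5.6 CPM at 6 h in DMSO and 34.8 ± 2.3 CPM at 0 h. In slr-1 it stood at 38.95, 20.2 and 23.2 CPM at 6 h in DEX, against 38.4, 35.03 and 37.7 CPM at 0 h, where 1 library of 6 h lay above all of 0 h. It stood at 20.97, 17.05 and 25.7 CPM at 6 h in slr-1 in DMSO, against 47.98, 39.6 and 41.8 CPM at 0 h. These groups did not overlap, as for 25.9% of all genes in this direction. CASP2 fell in DMSO by 0.39 ± 0.14 in shy2-2 and by 1.03 ± 0.21 in slr-1. In DEX its changes of -0.23 ± 0.14 and -0.44 ± 0.21 did not pass the test. The shy2-2 call was lost without replicate 2 of DMSO 6 h (adjusted p = 0.13), and the slr-1 DEX change passed without replicate 1 of DEX 6 h (-0.80, adjusted p = 0.0041). CASP1 had the smallest 6 h changes of these CASP genes in shy2-2. It stood at 86.04 ± 16.5 CPM at 6 h in DEX and 95.7 ± 8.6 CPM at 0 h, and at 89.9 ± 21.3 CPM at 6 h in DMSO and 100 ± 8.8 CPM at 0 h. The changes of -0.15 ± 0.16 in DEX and -0.12 ± 0.16 in DMSO did not pass the test. In slr-1 in DMSO it fell by 0.96 ± 0.20 at 6 h, with 62.5, 51.6 and 87.9 CPM against 151, 109 and 130 CPM at 0 h. Within the run of 1 to 6 h the fall was 0.56 ± 0.20 between 6 and 1 h (adjusted p = 0.025). In slr-1 in DEX its change was -0.23 ± 0.20, and -0.55 (adjusted p = 0.038) without replicate 1 of DEX 6 h, which held 127 CPM beside 68.0 and 81.9 CPM.

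ESB1 averaged 136 ± 25 CPM at 6 h in DEX and 149 ± 18 CPM at 0 h in shy2-2, and 132 ± 32 CPM at 6 h in DMSO and 143 ± 12 CPM at 0 h. It did not pass the test at any time in 3 of the 4 arms. In slr-1 in DMSO it fell by 0.81 ± 0.25 at 6 h (adjusted p = 0.0101), with 94.2, 68.9 and 119 CPM against 199, 136 and 157 CPM at 0 h. That call was lost without 6 h replicate 2 (adjusted p = 0.06) and within the run, where 6 against 1 h gave -0.39 ± 0.25 (adjusted p = 0.22). In shy2-2 PER64 stood at 62.7 ± 9.3 CPM at 6 h in DEX, against 72.9 ± 8.2 CPM at 0 h. In DMSO it stood at 57.6 ± 3.9 CPM at 6 h, against 71.4 ± 6.6 CPM at 0 h. Its change there of -0.27 ± 0.12 in DMSO missed the threshold (adjusted p = 0.0615). It passed in DESeq2 (-0.30, adjusted p = 0.029), with RLE factors, no filter or unstranded counts and without the libraries high in photosynthesis RNA (adjusted p = 0.037 to 0.048). It also passed without replicate 1 of DMSO 0 h or replicate 3 of DMSO 6 h (adjusted p = 0.02 and 0.045). In slr-1 PER64 fell by 0.95 ± 0.18 at 6 h in DMSO and by 0.58 ± 0.18 within the run against 1 h. In DEX its change at 6 h was -0.43 ± 0.18 (adjusted p = 0.073). Without replicate 1 of slr-1 DEX 6 h it was -0.77 (adjusted p = 0.001).

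The receptor gene SGN3 stood higher in DEX than in DMSO late in the course, where the treatments were in different runs. In shy2-2 at 6 h its libraries stood at 51.1, 54.5 and 47.7 CPM in DEX, against 31.3, 46.6 and 36.5 CPM in DMSO. At 4 h they stood at 49.95, 53.3 and 52.0 CPM in DEX, against 39.8, 43.2 and 46.4 CPM in DMSO. The treatments did not overlap at either time, as for 17% of all genes at 6 h and 12% at 4 h in this direction. In slr-1 it stood at 60.7, 46.7 and 59.4 CPM in DEX at 6 h, against 50.2, 36.2 and 38.0 CPM in DMSO, where 1 DEX library lay below the highest DMSO library. Over time SGN3 did not pass the test in DEX in either line, with 0.00 ± 0.14 at 6 h in shy2-2 and -0.25 ± 0.14 in slr-1. Its falls in DMSO at 6 h were 0.38 ± 0.14 in shy2-2 and 0.86 ± 0.15 in slr-1. The shy2-2 call was lost without replicate 2 or 3 of DMSO 0 h or replicate 1 or 3 of DMSO 6 h (adjusted p = 0.068 to 0.10), and the slr-1 DEX change passed without replicate 2 of DEX 0 h (-0.41, adjusted p = 0.037).

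The regulators MYB36 and SCR had changes of opposite sign in the first hour. Only in slr-1 in DEX did 0 and 1 h share a run. There neither gene passed edgeR's test in the main fit, though each passed in an alternative given below. MYB36 in shy2-2 in DMSO stood at 17.2, 22.3 and 20.4 CPM at 1 h, against 29.5, 27.5 and 34.3 CPM at 0 h, a fall of 0.60 ± 0.18 (adjusted p = 0.0114). In slr-1 in DMSO it stood at 20.8, 18.9 and 18.9 CPM at 1 h, against 26.5, 32.1 and 31.4 CPM at 0 h, a fall of 0.61 ± 0.14 (adjusted p = 0.00159). The groups did not overlap in either line, as for 19% of all genes in shy2-2 and 17.7% in slr-1 in this direction. MYB36 was back at 25.9 ± 2.1 CPM in shy2-2 and 28.1 ± 3.1 CPM in slr-1 at 2 h, not past the test against 0 h. These 2 h libraries shared the run of 0 h in shy2-2 and that of 1 h in slr-1. In DEX the 1 h changes were -0.23 ± 0.18 in shy2-2 and -0.32 ± 0.14 in slr-1, neither past the test. The shy2-2 DMSO call was lost without 1 h replicate 1 (adjusted p = 0.054), and the slr-1 DEX change passed without 1 h replicate 2 (-0.56, adjusted p = 0.0024).

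By 6 h MYB36 was lower again, by 0.52 ± 0.18 in shy2-2 in DMSO, 0.39 ± 0.14 in slr-1 in DEX and 0.74 ± 0.14 in slr-1 in DMSO, and at -0.33 ± 0.18 in shy2-2 in DEX (adjusted p = 0.16). The shy2-2 DMSO call was lost without 6 h replicate 2 (adjusted p = 0.077). The slr-1 DEX call was lost without replicate 1 or 3 of DEX 0 h or replicate 2 or 3 of DEX 6 h (adjusted p = 0.056 to 0.089) or without the libraries high in photosynthesis RNA (adjusted p = 0.11). SCR stood at 70.9, 67.9 and 69.2 CPM at 1 h in DEX, against 50.5, 56.2 and 51.8 CPM at 0 h, in shy2-2. In DMSO it stood at 74.5, 78.9 and 75.4 CPM at 1 h, against 49.9, 54.9 and 48.4 CPM at 0 h. Every 1 h library was above every 0 h library, as for 20.5% of all genes in DEX and 20.7% in DMSO. The rises were 0.38 ± 0.09 in DEX and 0.58 ± 0.09 in DMSO (adjusted p = 0.00235 and 2.28e-05). In slr-1, where only the DEX arm shares a run between 0 and 1 h, the change of SCR was 0.33 ± 0.13 in DEX (adjusted p = 0.072) and 0.26 ± 0.13 in DMSO (adjusted p = 0.15). SCR stood at 75.2, 70.5 and 79.4 CPM at 1 h in slr-1 in DEX, against 61.1, 55.8 and 61.5 CPM at 0 h. This change passed with a replicate block (0.33, adjusted p = 0.014) and with only the compared groups (0.33, adjusted p = 0.044). The slr-1 DMSO change passed with a replicate block (0.27, adjusted p = 0.04). It was 0.47 (adjusted p = 0.0049) without 0 h replicate 1, which held 85.1 CPM beside 53.2 and 59.7 CPM. SCR did not pass the test at 4 h in any arm, and at 6 h it was lower in slr-1 in DMSO, by 0.50 ± 0.13.

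**Figure D2:**
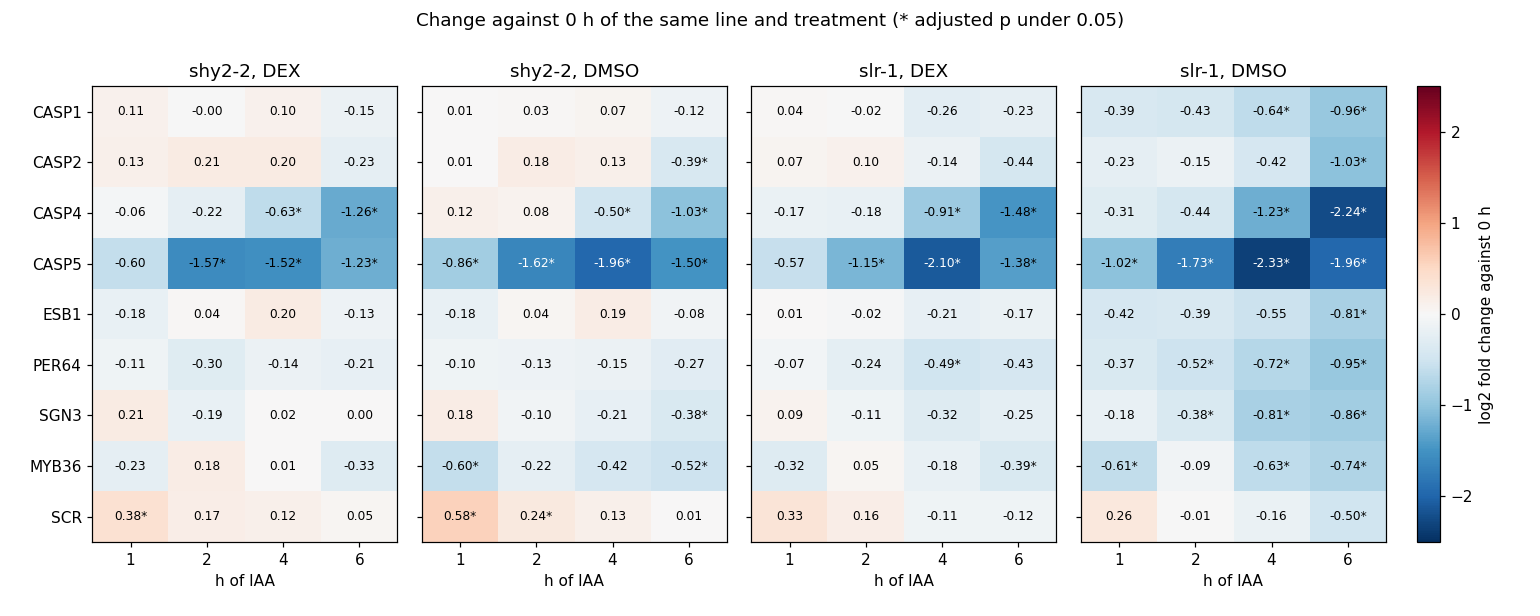
Log2 fold change against 0 h of the same line and treatment (colour and number) for each gene (rows) at 1, 2, 4 and 6 h of IAA (columns), in 4 arms. Asterisks mark an adjusted p under 0.05. CASP5 is negative from 1 h on in every arm, SCR is positive at 1 h, and all 9 genes are lower at 6 h in slr-1 in DMSO.

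Counted over the 9 genes at 6 h against 0 h, 2 fell in shy2-2 in DEX and 5 in shy2-2 in DMSO, where 17% and 20% of all genes tested fell. In slr-1 3 fell in DEX and 9 in DMSO, where 18.5% and 25.3% of all genes fell. In edgeR's test, 0 of the 9 rose at 6 h in any arm, as also at an unadjusted p under 0.05 and in DESeq2, where 18.7%, 26.3%, 18% and 29.2% of all genes did. The median change of the 9 genes was -0.21 in shy2-2 in DEX, -0.38 in shy2-2 in DMSO, -0.39 in slr-1 in DEX and -0.95 in slr-1 in DMSO, beside medians of 0.01, 0.04, 0.01 and 0.03 over all genes. At 1 h, 1 rose and 0 fell in shy2-2 in DEX (15.4% and 11.5% of all genes), and 1 rose and 2 fell in shy2-2 in DMSO (15.8% and 13.2%). At 1 h 0 moved in slr-1 in DEX (24.2% in either direction) and 2 fell in slr-1 in DMSO (11.4%). In DEX at 1 h edgeR's counts of 0 compare with 1 gene lower in shy2-2, and 1 higher and 1 lower in slr-1, at an unadjusted p under 0.05. DESeq2 called 1 in shy2-2, CASP5 (-0.62, adjusted p = 0.045), and 0 in slr-1.

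At 2 h, 1 fell in shy2-2 in DEX (8.46% of all genes), 1 rose and 1 fell in shy2-2 in DMSO (15.8% and 11.6%), 1 fell in slr-1 in DEX (10.2%) and 3 fell in slr-1 in DMSO (13.9%). The 1 that rose was SCR (0.24 ± 0.09, adjusted p = 0.0499). Its call was lost in DESeq2 and under each of the other 6 settings applied to all libraries (adjusted p = 0.051 to 0.21) and without replicate 1 or 3 of DMSO 0 h or replicate 2 or 3 of DMSO 2 h (adjusted p = 0.14 to 0.34). The 3 of slr-1 in DMSO were CASP5, PER64 (-0.52 ± 0.18) and SGN3 (-0.38 ± 0.14). Leaving out replicate 1 or 3 of DMSO 0 h or replicate 2 or 3 of DMSO 2 h ended the calls of PER64 (adjusted p = 0.06 to 0.10) and SGN3 (adjusted p = 0.081 to 0.18). At 4 h, 2 fell in shy2-2 in DEX and 2 in DMSO (11.1% and 17.4%), and 3 fell in slr-1 in DEX and 6 in DMSO (16.3% and 24.2%). The slr-1 DEX call of PER64 at 4 h (-0.49 ± 0.18) was lost without replicate 1 or 3 of DEX 0 h or replicate 2 or 3 of DEX 4 h (adjusted p = 0.057 to 0.17).

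The slr-1 DMSO count at 6 h rests on a 0 h group from another run. Within the run of the later times, 7 of the 9 genes were lower at 6 h than at 1 h (23.8% of all genes) and 6 lower than at 2 h (17.1%). ESB1 and MYB36 were not past the test against 1 h, and CASP5, ESB1 and PER64 not against 2 h. In slr-1 in DEX, 2 were lower at 6 h than at 2 h (9.73%), CASP4 and MYB36. The mean of the slr-1 DMSO 0 h libraries was above those of the other 0 h groups for all genes but MYB36, by unequal amounts. CASP1 had 130 ± 21 CPM there, against 95.7 ± 8.6 to 108 ± 11 CPM in the other 0 h groups, while CASP5 had 33.6 ± 3.1 CPM, against 33.1 ± 2.9 CPM in shy2-2 DMSO 0 h. MYB36 had 29.99 ± 3.1 CPM, against 30.4 ± 3.5 CPM in shy2-2 DMSO 0 h.

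In bulk roots, fewer endodermal cells and less RNA per cell cannot be told apart. A ratio between strip genes of the same library is free of a change that all of them share. For every 100 counts of CASP1, CASP4 had 9.85 ± 1.26 at 6 h in DEX and 21.3 ± 3.0 at 0 h, and 9.84 ± 0.87 at 6 h in DMSO and 18.5 ± 1.3 at 0 h, in shy2-2. In slr-1 it had 7.60 ± 0.74 at 6 h in DEX and 17.8 ± 1.4 at 0 h, and 7.34 ± 0.55 at 6 h in DMSO and 17.98 ± 1.4 at 0 h. On the log2 scale this ratio was lower by 1.11, 0.91, 1.23 and 1.29 in shy2-2 DEX and DMSO and slr-1 DEX and DMSO.

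CASP5 per 100 CASP1 counts stood at 14.7 ± 3.5 at 6 h in DEX and 31.9 ± 1.6 at 0 h, and at 12.9 ± 1.1 at 6 h in DMSO and 33.1 ± 1.9 at 0 h, in shy2-2. For CASP4 and CASP5 every 6 h library had a lower ratio than every 0 h library in all 4 arms, with an exact two-sided permutation p of 0.10 each, the smallest that 3 against 3 can give. The share of all genes whose ratio to CASP1 separates in this way was not counted. In shy2-2, where CASP1 itself did not pass the test, the ratios largely repeat the changes in CPM. CASP2 per 100 CASP1 counts stood at 32.7 ± 0.56 at 6 h in DEX and 34.5 ± 0.95 at 0 h, and at 29.04 ± 1.6 at 6 h in DMSO and 34.9 ± 2.1 at 0 h, in shy2-2. On the log2 scale its ratio was lower by 0.07, 0.26, 0.22 and 0.06 in the same order of arms, with exact p values of 0.10, 0.10, 0.10 and 0.60. Between these times the CASP2 ratio was higher, at 2 h with 40.2 ± 2.4 in DEX and 38.9 ± 2.5 in DMSO in shy2-2. Adjusted over the 12 ratios tested, no p can pass the threshold. The fall of CASP4 relative to CASP1 was of like size in both slr-1 arms, where the falls of CASP4 itself were 1.48 and 2.24. ESB1 per 100 CASP1 counts was 158 ± 3 at 6 h in DEX and 155 ± 5 at 0 h, and 147 ± 6 at 6 h in DMSO and 143 ± 5 at 0 h, in shy2-2.

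**Figure D3:**
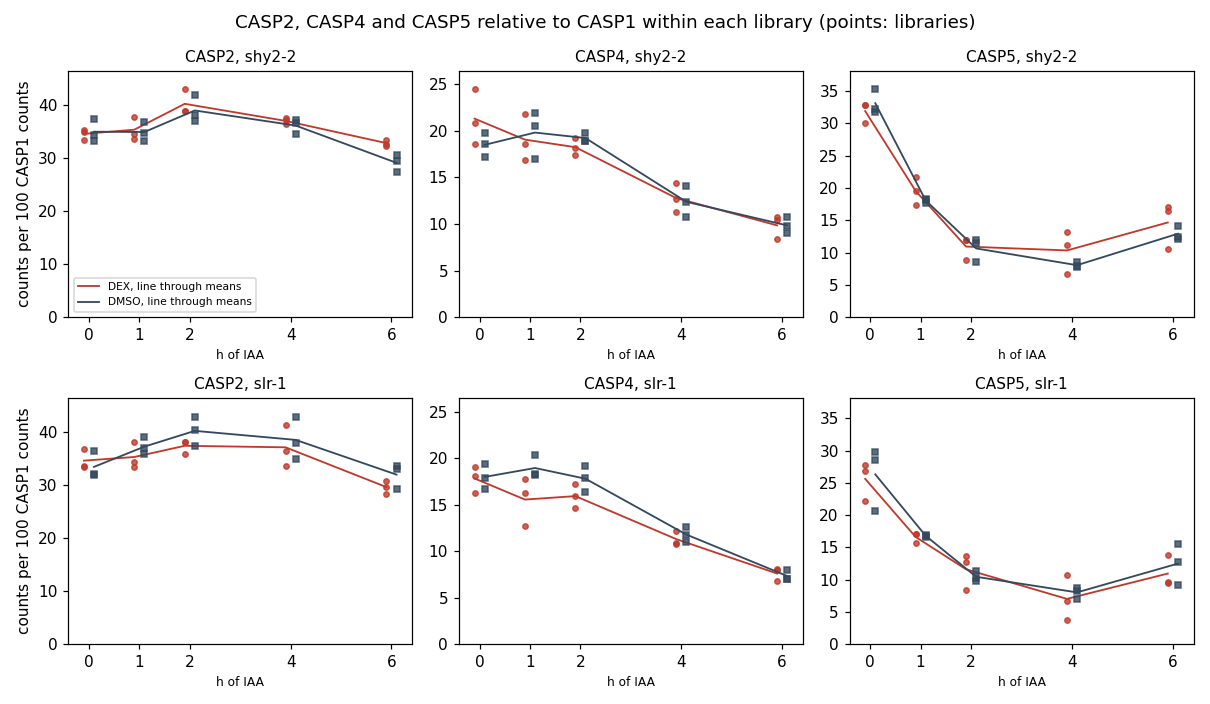
Counts of CASP2, CASP4 and CASP5 per 100 counts of CASP1 in the same library (vertical axis, from 0) against hours on IAA. Red circles are DEX libraries, dark squares DMSO libraries and lines join group means. CASP4 ends at 7.34 to 9.85 on average at 6 h and starts at 17.8 to 21.3 at 0 h. CASP2 averages lie between 29.04 and 40.2, highest at 2 h and lowest at 6 h in every arm.

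The comparison of DEX with DMSO addresses the effect of nuclear entry of the fusions. At every time but 1 h in shy2-2 the DEX and DMSO libraries came from different runs. A run difference cannot be told apart from an effect of DEX there. Between DEX and DMSO at 0, 1, 2 and 4 h, 0 of the 9 genes were past edgeR's or DESeq2's test in either line, and at an unadjusted p under 0.05 there were 2, both at 4 h in slr-1. Of all genes tested, 0%, 0.219%, 0.594% and 10.8% differed at these times in shy2-2, and 0.0229%, 0.585%, 1.57% and 17.8% in slr-1. In slr-1 at 0 h the log2 differences of the 9 genes were all negative (-0.29 to -0.13). The groups did not overlap for CASP2, CASP4, CASP5 and PER64 (3.24% of all genes were lower without overlap), and those libraries were of different runs. At 6 h, 1 was higher in DEX in shy2-2 (8.53% of all genes) and 2 in slr-1 (12.3%). In both lines 0 were lower by any of these counts (13.9% and 16.9%). The 1 in shy2-2 was SGN3, by 0.39 ± 0.14 (adjusted p = 0.0427). In slr-1 SGN3 was higher by 0.43 ± 0.14 (adjusted p = 0.0249) and CASP4 by 0.49 ± 0.18 (adjusted p = 0.043). CASP4 had 8.56, 5.395 and 6.64 CPM in DEX against 4.98, 3.63 and 6.17 CPM in DMSO, which overlap.

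These 3 calls depended on single libraries. For SGN3 in shy2-2 the adjusted p was 0.059 to 0.18 without any 1 of the DEX 6 h libraries, and without replicate 1 or 3 of DMSO 6 h. For SGN3 in slr-1 it was 0.068 to 0.12 without replicate 1 or 3 of DEX 6 h or replicate 2 or 3 of DMSO 6 h. For CASP4 it was 0.057 to 0.25 without replicate 1 or 3 of DEX 6 h or replicate 1 or 2 of DMSO 6 h. Without replicate 3 of slr-1 DMSO 6 h CASP1 (0.73, adjusted p = 0.01) passed. Leaving out replicate 2 of DEX 6 h let CASP1 (0.67, adjusted p = 0.02), ESB1 (0.71, adjusted p = 0.041) and PER64 (0.50, adjusted p = 0.046) pass.

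The change of the 6 h response by DEX, that is the 6 h minus 0 h difference in DEX less that in DMSO, is free of a constant run difference in shy2-2. There 0 of the 9 genes passed in edgeR, in DESeq2 or at an unadjusted p under 0.05 (3.04% of all genes were more positive and 7.64% more negative), with values from -0.22 to 0.38. The 95% intervals bound what these data allow: -0.82 to 0.38 for CASP4, -0.46 to 1.00 for CASP5 and -0.02 to 0.78 for SGN3. Without replicate 1 of DMSO 0 h the value of SGN3 was 0.55 (adjusted p = 0.042). In slr-1 2 of the 9 passed (5.92% of all genes were more positive, 11.7% more negative). They were CASP4 with 0.76 ± 0.25 (adjusted p = 0.0366) and SGN3 with 0.62 ± 0.20 (adjusted p = 0.0383). All 9 values were positive (0.35 to 0.76), beside an all-gene median of 0.05. The 0 h libraries of that contrast came from other runs than the 6 h libraries. Set against 2 h in place of 0 h, within a run in each arm, 0 of the 9 passed in slr-1 (2.8% and 7.24% of all genes), and 0 in shy2-2 (0.694% and 2.79%), by edgeR and by DESeq2. The slr-1 values were 0.50 (95% interval -0.02 to 1.02) for CASP4 and 0.35 (-0.08 to 0.77) for SGN3. At an unadjusted p under 0.05 there were 0 in slr-1 and 1 in shy2-2, SGN3 with 0.47 (0.07 to 0.87, adjusted p = 0.183).

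The slr-1 calls of this change were lost without single libraries. CASP4 lost it without replicate 1 or 2 of DEX 0 h, replicate 1 of DEX 6 h, replicate 1 or 3 of DMSO 0 h or replicate 1 or 2 of DMSO 6 h (0.58 to 0.79, adjusted p = 0.055 to 0.12). SGN3 lost it without replicate 2 of DEX 0 h, replicate 1 or 3 of DEX 6 h, replicate 1 or 3 of DMSO 0 h or replicate 2 or 3 of DMSO 6 h (0.49 to 0.59, adjusted p = 0.072 to 0.12). Without the libraries high in photosynthesis RNA, of which 2 are slr-1 DEX 0 h libraries, CASP4 was 0.69 and SGN3 0.49 (adjusted p = 0.20 each). Without replicate 3 of slr-1 DMSO 6 h CASP1 (1.00, adjusted p = 0.014) passed. Leaving out replicate 2 of DEX 6 h let CASP1 (0.93, adjusted p = 0.025) and PER64 (0.74, adjusted p = 0.045) pass.

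**Figure D4:**
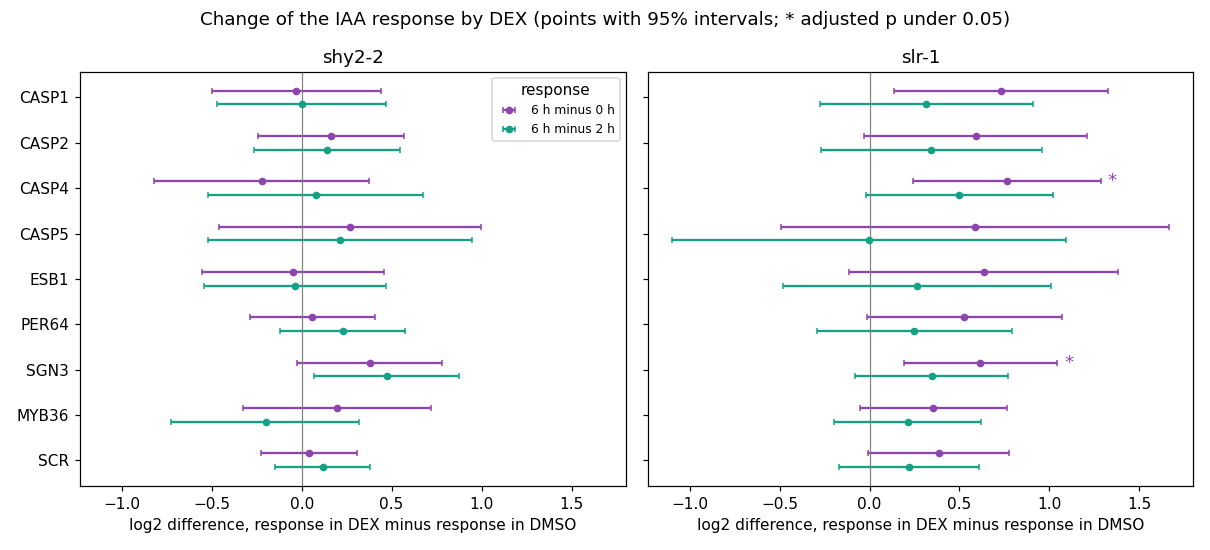
Change of the IAA response by DEX for each gene (rows) in shy2-2 (left) and slr-1 (right), on the log2 scale with 95% intervals. Purple points use 0 h and green points 2 h as the start. In shy2-2 the purple intervals include 0 for all 9 genes, and in slr-1 the purple points lie between 0.35 and 0.76 and the green ones closer to 0.

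Between the lines, 0 of the 9 genes passed edgeR's test in the 6 h response in DMSO (0.121% of all genes were more positive and 0.0808% more negative in shy2-2), 0 in the 6 h response in DEX (0.00449% and 0.00898%) and 0 in DEX against DMSO at 6 h (0.0359% and 0.148%). At an unadjusted p under 0.05 the counts were 7, 0 and 0, and DESeq2 called 1, 0 and 0. CASP4 came nearest in DMSO, with a response of shy2-2 less that of slr-1 of 1.16 ± 0.27 (95% interval 0.61 to 1.71, adjusted p = 0.0533). It passed in DESeq2 (1.18, adjusted p = 0.01) and without replicate 2 of shy2-2 DMSO 6 h, replicate 2 of slr-1 DMSO 0 h or replicate 3 of slr-1 DMSO 6 h (1.23 to 1.37, adjusted p = 0.014 to 0.029). SCR (0.61) passed without replicate 2 of slr-1 DMSO 0 h (adjusted p = 0.047). In DEX the differences were small, at most 0.24, with an interval of -0.34 to 0.77 for CASP4. In DMSO at 0 h 1 gene was lower in shy2-2 (0.966% of all genes), SGN3 with 50.9 ± 11.3 CPM in shy2-2 and 74.9 ± 11 CPM in slr-1 (-0.56 ± 0.14, adjusted p = 0.0357), from different runs. That call was lost without shy2-2 replicate 1 (adjusted p = 0.29) or slr-1 replicate 1 or 3 (adjusted p = 0.14 and 0.16). SCR passed without slr-1 replicate 2 (-0.48, adjusted p = 0.027).

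Markers of other cell types moved over the same hours. In shy2-2 the summed level of 4 epidermis genes was 54.3 to 81.7 CPM at 6 h in DEX against 173 to 193 CPM at 0 h. In DMSO it was 46.0 to 74.6 CPM at 6 h against 164 to 210 CPM at 0 h. The sum of 5 stele genes was 387 to 440 CPM at 6 h in DEX and 158 to 160 CPM at 6 h in DMSO in shy2-2, against 443 to 524 CPM at 0 h in DEX and 391 to 551 CPM at 0 h in DMSO. It was 443 to 489 CPM at 6 h in DEX and 112 to 145 CPM at 6 h in DMSO in slr-1, against 562 to 603 CPM at 0 h in DEX and 464 to 593 CPM at 0 h in DMSO. The sum of the 2 root meristem genes was 34.8 to 39.99 CPM at 6 h in DEX and 33.7 to 39.0 CPM at 6 h in DMSO in shy2-2, against 27.6 to 29.8 CPM and 26.4 to 29.98 CPM at 0 h in DEX and DMSO. The stele gap between DEX and DMSO at 6 h was mostly that of 1 gene, the phosphate exporter gene PHO1, picked out after its values were seen. It averaged 267 ± 39 CPM in DEX and 54.6 ± 9.5 CPM in DMSO in shy2-2, and 328 ± 28 CPM in DEX and 28.3 ± 3.8 CPM in DMSO in slr-1. The median log2 difference of the 5 genes was 0.355 in shy2-2, with 2 of 5 higher in DEX, and 0.349 in slr-1, with 3 of 5 higher. At 6 h the sum of the 2 root cap genes was 32.6 to 37.5 CPM in DEX and 48.2 to 51.0 CPM in DMSO in shy2-2. In slr-1 it was 34.4 to 38.4 CPM in DEX and 46.6 to 53.7 CPM in DMSO. The meristem sum in slr-1 at 6 h was 31.7 to 37.2 CPM in DEX and 39.8 to 43.9 CPM in DMSO. For the epidermis genes and the cortex gene, DEX and DMSO overlapped at 6 h in both lines. No marker of these lists was at 0 in all libraries. Their part in the changes of the 9 genes was not tested.

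Of 29 other barrier genes that could be tested, 10 fell and 5 rose at 6 h in shy2-2 in DEX, and 13 fell and 4 rose in shy2-2 in DMSO. Of all genes 17% fell and 18.7% rose in shy2-2 in DEX, and 20% fell and 26.3% rose in shy2-2 in DMSO. In the slr-1 line 9 fell and 5 rose in DEX and 22 fell and 3 rose in DMSO, where 18.5% of all genes fell and 18% rose in DEX, and 25.3% fell and 29.2% rose in DMSO. The medians were -0.15, -0.26, -0.12 and -0.78 in the same order of arms. The peroxidase family gene AT4G11290 fell furthest in every arm, in shy2-2 to 15.8, 12.4 and 11.2 CPM at 6 h in DEX, against 66.9, 58.6 and 58.8 CPM at 0 h. In DMSO it fell to 7.96, 9.64 and 8.09 CPM at 6 h, against 59.9, 82.5 and 56.8 CPM at 0 h. Its falls were 2.23 ± 0.18 in DEX and 2.92 ± 0.19 in DMSO in shy2-2 and 2.33 ± 0.16 in DEX and 3.19 ± 0.17 in DMSO in slr-1. In DMSO RCI3, another peroxidase gene, fell by 1.16 ± 0.12 in shy2-2 and 1.65 ± 0.14 in slr-1. AT5G18460, which encodes a DUF239 protein, fell there by 1.59 ± 0.19 in shy2-2 and 1.63 ± 0.14 in slr-1. It also fell in DEX, by 1.37 ± 0.18 in shy2-2 and 1.32 ± 0.14 in slr-1. The uclacyanin gene UCC1 fell in slr-1 by 1.59 ± 0.16 in DMSO and by 1.085 ± 0.157 in DEX. In DEX TPST, the tyrosylprotein sulfotransferase that sulfates peptide ligands, rose by 0.46 ± 0.06 in shy2-2 and 0.37 ± 0.06 in slr-1. AT2G16385, listed with the signalling genes and without a name in the reference, rose there by 1.44 ± 0.21 in shy2-2 and 1.37 ± 0.24 in slr-1. The CASP-like gene CASPL1D2, picked out after its values were seen, rose in DMSO by 5.17 in shy2-2 and 4.09 in slr-1. The highest change of these 29 genes in DEX was 3.95 in shy2-2 and 2.70 in slr-1.

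Between DEX and DMSO at 6 h, 6 of these 29 genes were higher in DEX in shy2-2 (8.53% of all genes) and 13 in slr-1 (12.3%), and 0 were lower (13.9% and 16.9%). MGP, a zinc finger factor gene known as a target of SHR and SCR, stood at 15.99, 24.02 and 12.7 CPM in DEX at 6 h, against 8.16, 6.07 and 5.81 CPM in DMSO, in shy2-2. In slr-1 it stood at 11.9, 18.2 and 21.1 CPM in DEX, against 4.60, 2.88 and 3.11 CPM in DMSO. The differences were 1.37 ± 0.29 and 2.29 ± 0.27 (adjusted p = 0.00117 and 5.24e-07). In shy2-2 the groups did not overlap, as for 17% of all genes in this direction. Over time MGP fell in DMSO, by 1.03 ± 0.28 in shy2-2 and 2.22 ± 0.27 in slr-1. Its changes in DEX were 0.24 ± 0.28 in shy2-2 and 0.01 ± 0.25 in slr-1, neither past the test. AT4G34600, listed with the signalling genes and without a name in the reference, stood at 48.2, 55.1 and 54.8 CPM in DEX at 6 h, against 26.2, 27.6 and 24.7 CPM in DMSO, in shy2-2. In slr-1 it stood at 58.0, 72.8 and 67.2 CPM in DEX, against 20.7, 24.2 and 20.6 CPM in DMSO. Its DEX change of the 6 h response was 1.19 ± 0.17 in shy2-2 and 1.59 ± 0.19 in slr-1 (adjusted p = 0.000125 and 2.7e-06), and within a run against 2 h it was 0.62 ± 0.17 and 1.21 ± 0.19 (adjusted p = 0.0487 and 0.000208). NUC, a zinc finger relative of MGP, was higher in DEX at 6 h by 0.43 ± 0.09 in shy2-2 and 0.73 ± 0.14 in slr-1. EXO70A1, a subunit gene of the exocyst, was higher by 0.31 ± 0.08 in shy2-2 and 0.27 ± 0.08 in slr-1, and its shy2-2 call was lost under 2 of 13 alternatives. The stele marker sum was also higher in DEX than in DMSO at 6 h, a gap that was mostly PHO1, and the root cap sum was lower. The part of these markers in the differences was not tested. At 6 h DEX and DMSO were of different runs in both lines, so DEX and run cannot be told apart in that comparison.

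Of 17 genes of suberin, the polymer that coats older endodermal cells, 10 rose and 0 fell at 6 h in shy2-2 in DEX, and 15 rose and 0 fell in shy2-2 in DMSO. In the slr-1 line 6 rose and 0 fell in DEX, and 12 rose and 1 fell in DMSO. The shares of all genes that rose were 18.7%, 26.3%, 18% and 29.2% in the same order of arms, and 17%, 20%, 18.5% and 25.3% fell. The MYB factor gene MYB93 rose by 6.14 ± 0.72 in DEX and 7.16 ± 0.73 in DMSO in shy2-2. ASFT, which encodes the feruloyl transferase of suberin, rose by 2.56 ± 0.47 in DEX and 3.43 ± 0.48 in DMSO there, and FAR4, a fatty acyl reductase gene, by 5.95 ± 1.14 and 7.80 ± 1.22. In the same line the cytochrome gene CYP86B1 rose by 4.17 ± 0.94 in DEX and the transporter gene ABCG20 by 7.44 ± 1.37 in DMSO. A gene is named only in the contrasts where its adjusted p was among the lowest, so an arm left out does not mean no change. In slr-1 in DEX FAR4 rose by 4.24 ± 0.87, ASFT by 1.73 ± 0.37 and ABCG20 by 4.03 ± 1.01. These slr-1 DEX calls were lost without the libraries high in photosynthesis RNA. FAR1, another reductase gene, rose by 5.21 ± 0.96 in slr-1 in DMSO. The CPM levels of these suberin genes are not given here, and a large log2 change can start from few counts. At 6 h the fatty acid elongation gene KCS20 was lower in DEX than in DMSO, by 0.96 ± 0.34 in shy2-2 (adjusted p = 0.0441, lost under 6 of 13 alternatives) and by 1.17 ± 0.30 in slr-1. ASFT was lower in DEX in slr-1, by 1.03 ± 0.36 (adjusted p = 0.0355, lost under 6 of 13 alternatives). MYB92, a factor related to MYB93, was higher in DEX by 0.34 ± 0.09 in slr-1.

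**Figure D5:**
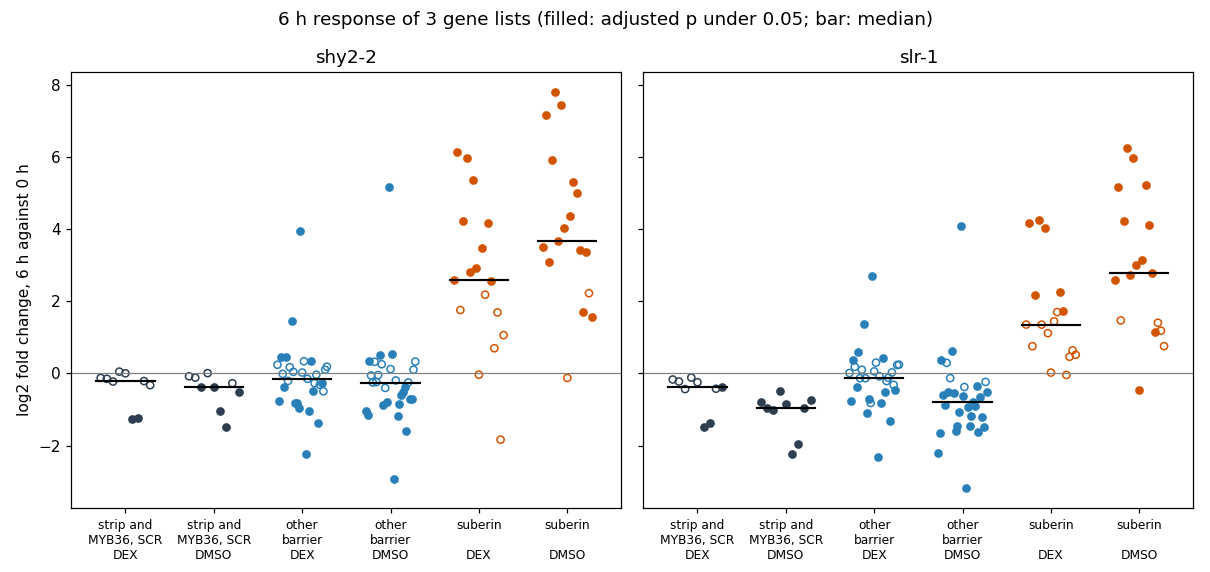
Log2 fold change at 6 h against 0 h of the 9 genes (dark), the other barrier genes (blue) and the suberin genes (orange) in DEX and DMSO of each line. Filled points passed the test and bars are medians. The 9 genes lie at or below 0 apart from values up to 0.05, and most suberin genes lie above it.

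Over the 20 group means, the profiles of CASP1, CASP2, CASP4 and CASP5 were most alike between CASP2 and either CASP1 or CASP4 (Pearson r = 0.875 each) and least between CASP2 and CASP5 (r = 0.345). MYB36 followed these CASP genes with r of 0.393 to 0.652. Over all pairs of the 9 genes r was highest between CASP1 and PER64 (0.884) and lowest between MYB36 and SCR (-0.019). The 5 genes outside the list with profiles nearest to the mean profile of these CASP genes were taken from 15791 genes with a mean of at least 5 CPM. They were AT2G15300, a leucine-rich repeat kinase family gene (r = 0.967), UCC1 (r = 0.952), the vacuolar proton pump genes AVA-P1 (r = 0.943) and VHA-C3 (r = 0.939), and ACBP4, which encodes an acyl-CoA binding protein (r = 0.940). The group means share libraries, runs and depth, so these values only describe likeness, and 0 of the 5 genes were among the 5 nearest by Spearman's rank correlation.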

How the data were processed

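RNA-seq counts of 60 root libraries were analysed. The authors deposited raw read counts per locus for each library; STAR 2.5.2b, the TAIR10 build and DESeq2 are named in the submitters' processing notes, and the annotation version is not given in the sources used here. Each file holds an unstranded and 2 stranded counts; the last of them, column 4, was used, since it held 93.6% to 96.4% of stranded counts. Rows naming no gene, 5.58% to 11.9% of a library's counts, were left out. Replicates of a group differed by more than sampling noise (lowest chi-square per degree of freedom 14.9).

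Counts were filtered with filterByExpr, scaled with TMM and tested with edgeR 4.0.16 (quasi-likelihood, R 4.3.3, limma 3.58.1) over 21902 genes in shy2-2, 21864 in slr-1 and 22268 for both lines, with Benjamini-Hochberg adjustment over all genes and a threshold of 0.05. The test was checked on simulated counts. Runs were read from file names. The text names 9 genes of the set, the up to 4 barrier and suberin genes with the lowest adjusted p in each 6 h contrast, and the 5 genes of a profile most like the mean of CASP1, CASP2, CASP4 and CASP5. Another gene of the set is not reported here. The genes and the lists were chosen with earlier results of these data known. Alternatives were DESeq2 1.42.0, RLE factors, no filter, unstranded counts, only the compared groups, a replicate block, each library left out and, chosen after seeing the data, the 7 libraries high in photosynthesis RNA left out.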

Additional observations from a re-analysis of the deposited data

Results flagged for a closer look

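In slr-1, the response to 6 h of IAA differed between DEX and DMSO by an interaction term for 2 of the 9 genes in edgeR's quasi-likelihood test. The difference of the log2 responses, DEX less DMSO, was 0.76 for CASP4 (adjusted p = 0.0366) and 0.62 for SGN3 (adjusted p = 0.0383). The 0 h and 6 h libraries of each arm came from different sequencing runs. With 2 h as the start, within a run, the values were 0.50 and 0.35 (adjusted p = 0.247 and 0.346). The part of the runs in these values was not tested.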

How the results depend on the processing

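No call of the 9 genes changed sign under any alternative. Of 51 calls over all contrasts, DESeq2, RLE factors, no filter and a replicate block each lost 1, and unstranded counts lost 6. Those 6 were of ESB1, SCR and SGN3, and ESB1 had 0 to 36 counts in a library without strand. Fitting only the compared groups or leaving out the libraries high in photosynthesis RNA (chosen after seeing the data) lost 11 each. The cause of these losses was not tested. Same-numbered libraries correlated over 0.1 in 60 of 135 pairs in shy2-2 and 64 of 135 in slr-1. Differently numbered libraries did so in 106 of 270 and 103 of 270 pairs. The median correlations were 0.025 and 0.063 for same-numbered pairs, against -0.018 and -0.012 for the others. Whether the numbers pair the samples was not tested, and they were used only in the replicate block.

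Counts that moved by over 1.5 times were as follows. In shy2-2, the 1 gene higher at 2 h in DMSO became 0 under all 7 settings, and the 5 lower at 6 h became 3 with only the compared groups. In DEX the genes lower numbered 1 and not 0 at 1 h with DESeq2 and with only the compared groups, 2 and not 1 at 2 h with DESeq2 and with unstranded counts, and 1 and not 2 at 4 h without the photosynthesis-rich libraries. The 1 gene higher in DEX than in DMSO at 6 h became 0 with unstranded counts, without the photosynthesis-rich libraries and with only the compared groups. In slr-1, the replicate block gave 1 and not 0 higher at 1 h in DMSO, in DEX and, for DEX against DMSO, at 4 h, and only the compared groups gave 1 at 1 h in DEX. The block also gave 5 and not 3 lower at 6 h in DEX. Without the photosynthesis-rich libraries the genes lower were 1 and not 2 at 1 h in DMSO, and 0 and not 1 at 2 h in DEX. Without them, those higher in DEX than in DMSO at 6 h were 1 and not 2 (0 with only the compared groups), and those with a 6 h response changed by DEX 0 and not 2 (0 with only the compared groups, 1 with unstranded counts). Between lines, 1 and not 0 differed in the 6 h DMSO response with DESeq2, RLE factors and the block, and 0 and not 1 in DMSO at 0 h with unstranded counts and only the compared groups. Other counts moved by less. In shy2-2 in DMSO, the 2 lower at 4 h were 3, with MYB36, under every setting but no filter, and the 5 lower at 6 h were 6, with PER64, under 5 of the 7. In slr-1 in DMSO, the lower were 3 and not 2 at 1 h with only the compared groups. At 2 h they were 4 and not 3 with DESeq2, RLE factors and the block, and 2 without the photosynthesis-rich libraries. At 4 h they were 7 with the block and 8 with only the compared groups, and not 6, and at 6 h 8 and not 9 with unstranded counts and only the compared groups. In slr-1 in DEX the 3 lower at 4 h were 4 with the block, the 3 lower at 6 h were 4 with DESeq2, and both were 2 without the photosynthesis-rich libraries.

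Leaving out 1 library gave, for genes lower in shy2-2 in DMSO, 1 to 2 at 1 h, 1 to 4 at 4 h and 3 to 6 at 6 h, and 0 to 1 higher at 2 h; in DEX 1 to 2 lower at 2 h, 1 to 2 at 4 h and 2 at 6 h. In slr-1 in DMSO 1 was lower and 0 to 1 higher at 1 h, 1 to 4 lower at 2 h, 6 to 7 at 4 h and 8 to 9 at 6 h; in DEX 0 to 1 at 1 h, 0 to 1 at 2 h, 2 to 4 at 4 h and 2 to 6 at 6 h. Genes higher in DEX than DMSO at 6 h numbered 0 to 1 in shy2-2 and 0 to 5 in slr-1, those with a changed 6 h response 0 to 1 and 0 to 4, and between lines 0 to 2 for the DMSO response and 0 to 2 in DMSO at 0 h.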
